A study of Drosophila melanogaster with 2 samples.

Results

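The Cpr genes encode structural proteins of the insect cuticle. They were taken as every protein-coding gene whose symbol is Cpr followed by a digit. The rule found 70 genes among 13968 protein-coding genes on the named chromosome arms. The digit leaves out the gene whose whole symbol is Cpr, which encodes a cytochrome P450 reductase. The arms 3L, 2R, 2L, 3R and X held 35, 21, 5, 5 and 4 of the 70 genes. Their binding by Rough was read from chromatin immunoprecipitation (ChIP-seq) peak lists. The material was whole Drosophila melanogaster embryos of the strain ro-GFP, collected over 0 to 24 hours, which express the fusion protein ro-eGFP. An anti-GFP antibody was used for the pull-down, and the chromatin had been sonicated to 200 to 800 bp. There was 1 group with 2 separate biological replicates, and no input or untagged sample was analysed here.

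Insect cuticle is a layer of chitin and protein that the epidermis and the tracheae secrete, and the embryo lays down its first larval cuticle late in its development. Cpr proteins carry the Rebers and Riddiford consensus, a chitin-binding stretch, and the genes often lie side by side in tandem arrays. Rough is a homeodomain transcription factor best known for patterning the photoreceptor cells of the eye. A whole embryo mixes cell types and stages, so binding in few cells and weak binding in many cannot be told apart. The individual functions of most Cpr genes are not described here. The sources used here do not name the element that drives the fusion.

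The authors deposited peaks in layers, and the results turn on the difference between them. A ranked list holds every candidate peak, however weak, with a signal value that measures enrichment on the authors' own scale. The thresholded lists keep only candidates with an irreproducible discovery rate (IDR), a measure of disagreement between rankings, of at most 0.01. The optimal set is the main thresholded list over both replicates, with 1969 peaks, of which 1883 lay on the named arms. All 1969 were also entries of the ranked list behind it, which held 144610 candidates. A further 64 entries of that ranked list on the arms passed the IDR threshold without being in the optimal set, and 0 of them were nearest to a Cpr gene. The median signal value was 102 in the optimal set and 19.2 in that ranked list. A peak was placed by its summit in 3 ways, within 500 bp of an annotated start, inside the gene body, or at the gene whose start was nearest. Read totals are not part of these lists, which leaves the depth unknown, and the 95% Wilson intervals below cover the counting of genes only.

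Of the optimal-set peaks, 2 had a Cpr gene as the nearest start, Cpr76Ba and Cpr65Eb, and both lay between genes on chromosome arm 3L. Their reference sequences (Release 6 assembly, dm6, from RefSeq) are printed because they are the thresholded binding regions closest to the family. Capitals mark TAATTA, the core word of many homeodomain sites, searched on both strands.
Peak past Cpr76Ba (chr3L:19516658-19516805, plus strand): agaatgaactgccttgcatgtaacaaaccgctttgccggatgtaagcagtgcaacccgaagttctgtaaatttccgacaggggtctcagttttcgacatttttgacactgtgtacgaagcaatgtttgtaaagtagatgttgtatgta
Peak between Cpr65Eb and Cpr65Ec (chr3L:7090792-7091091, plus strand): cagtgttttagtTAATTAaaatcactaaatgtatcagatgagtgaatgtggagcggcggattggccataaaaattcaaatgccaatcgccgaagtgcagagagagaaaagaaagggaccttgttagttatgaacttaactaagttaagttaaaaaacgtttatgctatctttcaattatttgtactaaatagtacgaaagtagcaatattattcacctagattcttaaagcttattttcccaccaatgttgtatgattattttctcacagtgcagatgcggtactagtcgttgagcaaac
The first is the whole peak of 148 bp. The second is the left 300 bases of a 380 bp peak that ends at position 7091171, chosen because that end holds the word. Over its whole length the 148 bp peak had no TAATTA and the 380 bp peak had 1. In the 101 bp around the summit both had 0, where 10.2% of all 1883 optimal-set peaks on the arms held the word. In the same 101 bp window the Cpr76Ba peak was 53.5% A and T and the Cpr65Eb peak 74.3%, against 65.6% ± 10.8 (SD, n = 1883 peaks) in the whole set. A match is a description and not a binding site.

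The Cpr76Ba peak had its summit at position 19516717, 1615 bp downstream of the start and beyond the far end of this 781 bp gene. Its signal value was 174, above 81.3% of the optimal set on the arms, with a deposited q value of 0.0293. The overlapping candidate had a signal value of 54.2 in replicate 1 and 132 in replicate 2. Only the replicate 2 candidate was in that replicate's own thresholded list. The next starts were those of Cpr76Bb at 2932 bp and Cpr76Bc at 4228 bp.

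The Cpr65Eb peak had its summit at position 7090982, in the space between 2 Cpr genes that are transcribed away from each other. The start of Cpr65Eb lay 2195 bp away and that of Cpr65Ec 2222 bp away, so the assignment to Cpr65Eb rests on a small difference. Its signal value was 118, above 61.7% of the optimal set, with a q value of 0.0401. The overlapping candidate had a signal value of 73.9 in replicate 1 and 43.4 in replicate 2. Here it was replicate 1 whose own thresholded list held the peak. Each of the 2 peaks therefore passed the threshold within 1 replicate and over both, and both were also in the conservative set.

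None of the 70 Cpr genes had an optimal-set summit at a start or in the gene body. At starts the count was 0 of 70, which allows a share of up to 4.29% (3 counts), against 7.62% of all protein-coding genes. In gene bodies it was again 0 of 70, against 6.01% of all genes. By nearest start the count was 2 of 70, or 2.86% (0.787 to 9.83%), against 10.4% of all genes. The conservative set also gave 0 Cpr genes at starts, against 6.83% of all genes.

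Neither replicate's own thresholded list put a summit at a Cpr start. The background at starts was 6.03% of all genes in replicate 1 and 5.43% in replicate 2. By nearest start each replicate gave 1 Cpr gene, against 7.88% of all genes in replicate 1 and 6.57% in replicate 2. The single genes were Cpr65Eb in replicate 1 and Cpr76Ba in replicate 2.

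**Figure D1:**
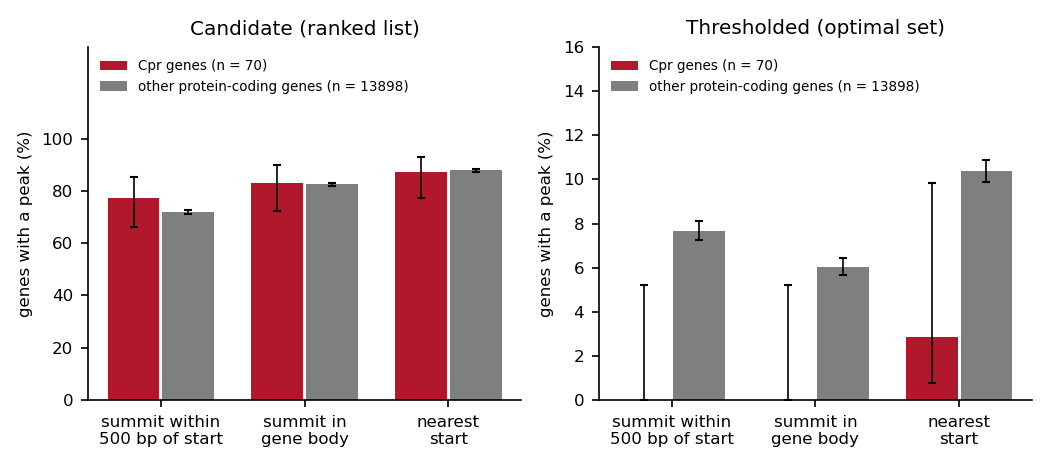
Share of genes (%, y axis) with a peak by each way of placing it (x axis), in the ranked list (left) and the optimal set (right), for 70 Cpr genes (red) and 13898 other protein-coding genes (grey); error bars are 95% Wilson intervals. The red and grey bars are close for candidates, whereas no red bar is seen at starts or in gene bodies in the optimal set.

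Cpr genes are short with few starts, and the background is lower among genes like them. Their span had a median of 1094 bp, against 2164 bp for all protein-coding genes, and 90% had 1 annotated start, against 73.5%. Among genes whose span lay in the middle range of Cpr spans (772.2 to 1894 bp, from the lower to the upper quartile), 0 of 34 Cpr genes had an optimal-set summit at a start, against 5.21% of all 4568 such genes. For 0 of all 70 Cpr genes at starts, the share allowed by a count of 0 was 4.29% and the Wilson interval reached 5.20%. Both limits lie below 5.21%, but they hold for 70 genes. With 34 genes both are wider and were not worked out, so 0 of 34 is not taken to exclude that background. In gene bodies the background for that span was 1.03%, so 0 of 34 Cpr genes is near it. Among genes with 1 start, 0 of 63 Cpr genes had an optimal-set summit at the start, against 5.53% of 10269 genes. In the body of such genes the background was 2.36%, beside 0 of 63 Cpr genes. By nearest start the background was also lower among like genes than the 10.4% of all genes. In the middle range of Cpr spans it was 5.80% of 4568 genes, and 2 of 34 Cpr genes is near it. Among genes with 1 start it was 7.12% of 10269 genes, beside 2 of 63 Cpr genes. At starts the limits of 4.29% and 5.20% over 70 Cpr genes lie below the 5.53% as well. They are wider for 63 genes and were not worked out, so whether 0 of 63 excludes the 5.53% was not decided. The backgrounds by span and by 1 start were chosen after the values were seen. Neighbouring Cpr genes share sequence and surroundings, so the 70 genes are not independent, and no test was made.

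In the full ranked list over both replicates, candidates were about as frequent at Cpr genes as elsewhere. A candidate summit lay within 500 bp of a start in 54 of 70 Cpr genes, or 77.1% (66.0 to 85.4%), against 71.8% of all genes. The gene body held one in 58 of 70 Cpr genes, or 82.9% (72.4 to 89.9%), against 82.5%. A candidate was nearest to 61 of 70 Cpr genes, or 87.1% (77.3 to 93.1%), against 87.9%. Each share is near its background. In the replicates' own ranked lists, starts had a candidate in 42 Cpr genes (60%) in replicate 1, against 54.8% of all genes, and in 50 (71.4%) in replicate 2, against 71.2%. Gene bodies had one in 44 Cpr genes (62.9%, 51.1 to 73.2%) in replicate 1, against 73.4% of all genes, and in 57 (81.4%) in replicate 2, against 82.0%.

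The body shares were lower than the background in replicate 1 and among strong candidates, with no test made. Among the 20000 candidates with the highest signal values, 18 Cpr genes (25.7%, 16.9 to 37.0%) had one in the gene body, against 40.1% of all genes. At starts it was 13 Cpr genes (18.6%, 11.2 to 29.2%), against 24.3%, and by nearest start 36 (51.4%, 40.0 to 62.8%), against 54.7%. Gene length moved with the body shares. Among genes in the middle range of Cpr spans, 8 of 34 Cpr genes (23.5%) had one of these strong candidates in the body, against 21.6% of all such genes. For replicate 1 it was 20 of 34 Cpr genes (58.8%), against 60.2% of all such genes. These span backgrounds were added after the values were seen.

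Per length, Cpr gene bodies held 203 candidate summits in 155.4 kb, or 1.31 per kb. All gene bodies held 1.07 per kb, and genes in the middle range of Cpr spans held 1.23 per kb. Optimal-set summits numbered 0 in Cpr bodies, against 0.0120 per kb over all gene bodies and 0.00811 per kb in genes of that span. At rates this low few summits would fall in 155.4 kb, so the 0 does not stand out from them.

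Given a candidate at the start, 0 of 54 Cpr genes had an optimal-set summit there, which allows up to 5.56%. Among all genes with a start candidate the share was 10.6%. The best −log10 IDR at a Cpr start had a median of 0.155 and reached 1.5, at Cpr49Ae, below the threshold of 2. In other genes the median was 0.184 and the highest 5. That no Cpr start reached 2 restates the absence of an optimal-set summit there, and the highest values come from 54 Cpr genes and 9973 other genes.

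Signal values of single candidates were much alike. The 407 candidates nearest to Cpr genes had a median signal value of 19.5 (quartiles 11.3 and 29.4), against 19.3 (11.1 and 29.3) for 140229 candidates nearest to other genes. The strongest candidate at each start had a median of 28.1 over 54 Cpr genes and 28.7 over 9973 other genes. The 90th percentile was 46.1 for Cpr genes and 74.8 for other genes, and the highest value was 57.6 in Cpr genes and 1265 in other genes. The other genes include the 1064 with an optimal-set summit at a start. In gene bodies the strongest candidate had a median of 28.6 over 58 Cpr genes (quartiles 22.7 and 39.1), lower than the 35.4 over 11462 other genes (26.2 and 46.4). Within the middle range of Cpr spans it was 29.2 over 27 Cpr genes and 28.5 over 3635 other genes. In replicate 1 the medians of these start values were 17.1 for 42 Cpr genes and 17.3 for other genes. In replicate 2 they were 16.4 for 50 Cpr genes and 17.6 for other genes.

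**Figure D2:**
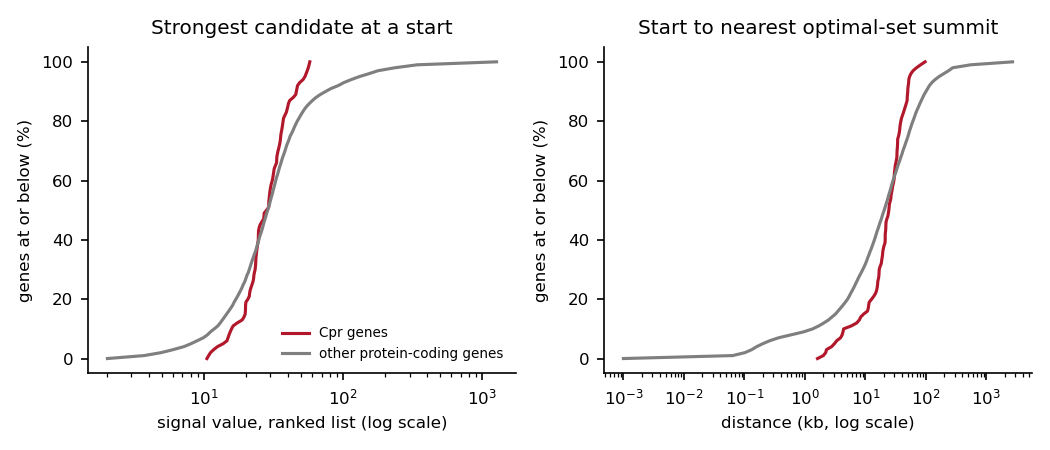
Cumulative share of genes (%, y axes) by the signal value of the strongest candidate within 500 bp of a start (left, log axis) and by the distance in kb to the nearest optimal-set summit (right, log axis), for Cpr genes (red) and other protein-coding genes (grey). The red curve on the left ends at 57.6 and the grey one at 1265; on the right no Cpr start lies closer than 1615 bp.

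Cpr starts were not far from optimal-set peaks, but few were close. The distance from a Cpr gene to the nearest optimal-set summit had a median of 24372 bp (quartiles 15910 and 35339 bp), against 20430 bp (6809 and 50736 bp) for other genes. Within 5 kb there were 8 Cpr genes (11.4%), against 19.9% of other genes. The 8 were Cpr76Ba, Cpr76Bb and Cpr76Bc, Cpr65Ea, Cpr65Eb and Cpr65Ec, Cpr31A at 3242 bp and Cpr78Cc at 4018 bp. The first 6 of these share the 2 peaks printed above.

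The strongest start candidates of the family stood under the optimal-set median of 102. Cpr49Ae led with a signal value of 57.6, with 25.4 in replicate 1 and 17.3 in replicate 2. Its neighbour Cpr49Ad had 56.3, with 29.2 in replicate 1 and 20.3 in replicate 2. Both were present in each replicate.

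Cpr72Eb had 54.4 over both replicates, with 20 in replicate 1 and no start candidate in replicate 2. Cpr47Ef had 52.4, with 10.8 in replicate 1 and 25.9 in replicate 2. Cpr12A had 47.2, with 22.6 and 15.7 in replicates 1 and 2. The replicates thus put these genes in different orders.

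The rest of the leading 10 were Cpr65Ec (46.3), Cpr64Ab (45.5), Cpr64Ac (40.8), Cpr47Eb (40.0) and Cpr49Ab (39.1). The lowest 5 among genes with a start candidate were Cpr92A (10.5), Cpr64Aa (11.1), Cpr65Ay (12.2), Cpr49Ah (14.5) and Cpr67B (15). Cpr64Aa and Cpr64Ab belong to 1 array, so its members ranged from the second lowest value to the seventh highest.

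Both replicates had a start candidate at 35 Cpr genes (50%), replicate 1 alone at 7, replicate 2 alone at 15 and neither at 13. Of all genes, 46.1% had one in both. Where both had one, the strongest signal values had a Spearman rho of -0.08 over 35 Cpr genes. The same rho was 0.54 over 6435 genes in all, and 0.27 over the 5396 of them with no optimal-set summit at a start. These are descriptions across genes, with values from the same 2 libraries. The order of Cpr genes by candidate strength in 1 replicate therefore said little about their order in the other.

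**Figure D3:**
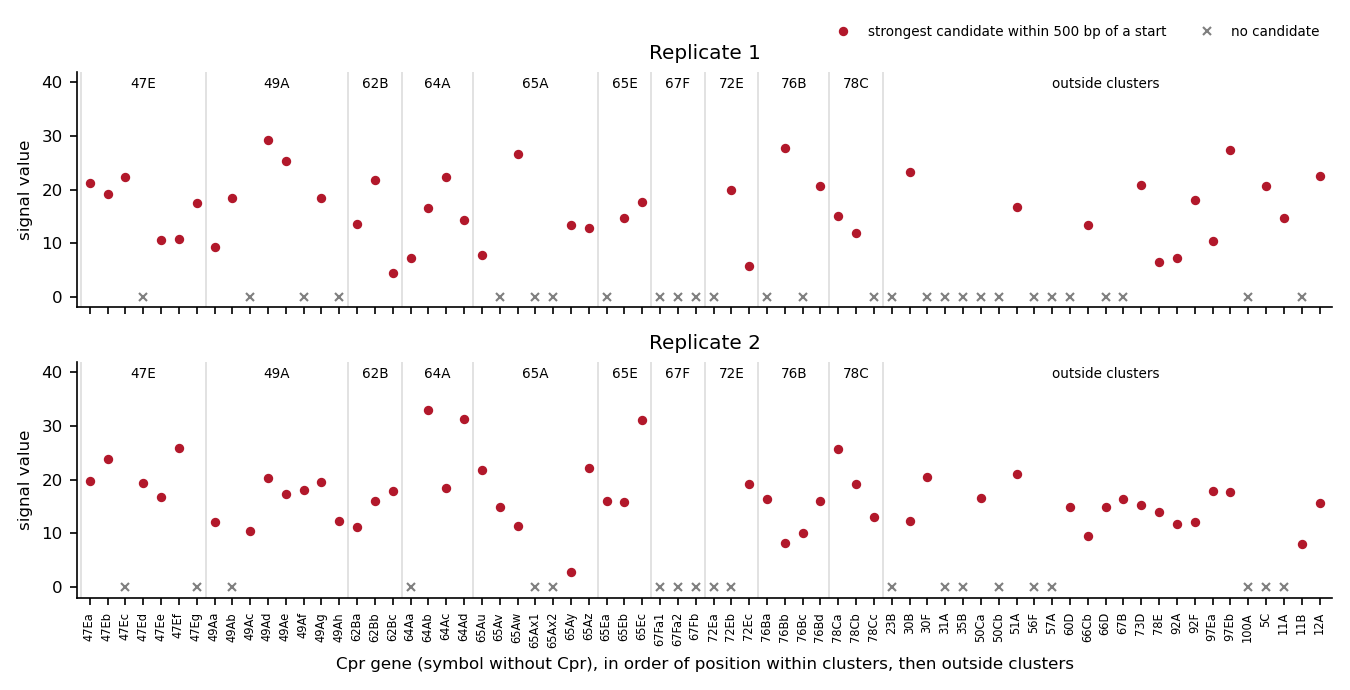
Signal value (y axes) of the strongest candidate within 500 bp of a start for each of the 70 Cpr genes (x axis, by array and then outside arrays) in replicate 1 (top) and replicate 2 (bottom); crosses at the base mark genes with no candidate. The highest points are 29.2, at Cpr49Ad in replicate 1, and 33.0, at Cpr64Ab in replicate 2.

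Promoters of Cpr genes had a feature that the symbol rule did not use. The word TATAAA, the TATA box core that fixes the start of transcription, lay 45 to 16 bp before the start on the gene strand in 39 of 70 Cpr genes (55.7%), against 8.74% of all genes. Examples are printed for the genes beside the 2 peaks and for the highest start candidates on 3L and X, each from 100 bases before to 50 bases after the start on the gene strand. Capitals mark TATAAA.
Cpr65Eb promoter (chr3L:7088738-7088887, minus strand): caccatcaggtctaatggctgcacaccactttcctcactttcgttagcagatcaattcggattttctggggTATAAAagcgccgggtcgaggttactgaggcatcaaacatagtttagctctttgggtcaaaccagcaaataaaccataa
Cpr65Ec promoter (chr3L:7093104-7093253, plus strand): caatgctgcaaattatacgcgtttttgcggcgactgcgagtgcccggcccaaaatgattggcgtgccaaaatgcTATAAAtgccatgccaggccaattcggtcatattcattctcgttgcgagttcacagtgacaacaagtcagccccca
Cpr76Ba promoter (chr3L:19518283-19518432, minus strand): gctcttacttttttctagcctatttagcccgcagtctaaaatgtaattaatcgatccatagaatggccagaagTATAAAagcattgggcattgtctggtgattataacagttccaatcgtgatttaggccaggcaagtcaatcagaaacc
Cpr72Eb promoter (chr3L:16364799-16364948, plus strand): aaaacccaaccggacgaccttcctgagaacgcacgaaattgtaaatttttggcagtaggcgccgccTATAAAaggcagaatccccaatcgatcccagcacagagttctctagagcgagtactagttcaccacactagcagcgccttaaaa
Cpr12A promoter (chrX:13543543-13543692, plus strand): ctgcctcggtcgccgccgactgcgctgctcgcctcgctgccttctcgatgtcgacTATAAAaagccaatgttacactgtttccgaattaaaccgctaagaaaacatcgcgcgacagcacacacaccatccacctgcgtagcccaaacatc
All 5 hold the word. These examples were chosen after the word counts were seen.

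Other promoter words were searched in the 300 bases from 250 before to 50 after the start, on both strands. TAATTA was present in 10 Cpr promoters (14.3%), against 20.4% of all. GAGAG, bound by GAGA factor, was present in 32.9% of Cpr promoters and 29.7% of all. TATCGATA, the core of the DNA replication-related element, was in 1 Cpr promoter (1.43%), against 9.36% of all. CACGTG, an E-box, was also in 1 (1.43%), against 4.20%. TCAGT, part of the initiator, lay within 10 bp of the start on the gene strand in 11.4% of Cpr genes and 11.7% of all genes. Cpr promoters were 54.9% ± 6.01 A and T (SD, n = 70), against 60.9% ± 7.81 (n = 13968) for all.

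The TATA word went with a smaller share of thresholded peaks over all genes. An optimal-set summit lay within 500 bp of a start in 2.29% of the 1221 genes with TATAAA, against 8.13% of the 12747 genes without it. Among Cpr genes it was 0 of 39 with the word, which allows up to 7.69%, and 0 of 31 without it, which allows up to 9.68%. Start candidates were present in 74.4% of Cpr genes with the word and 80.6% of those without it. The corresponding shares of all genes were 68.0% and 72.2%. The part of the TATA word in the absence of thresholded summits at Cpr starts was not tested. This split was made after the values were seen.

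**Figure D4:**
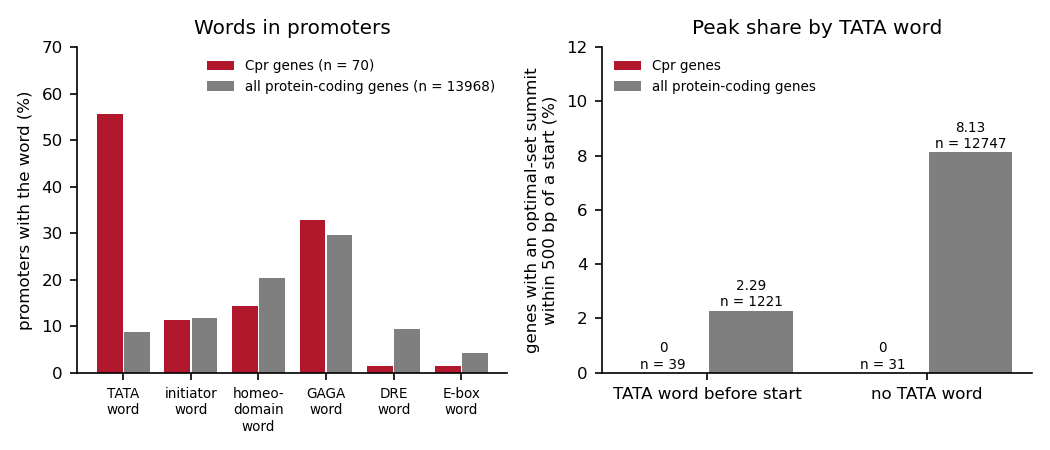
Left, share of promoters (%, y axis) that hold each of 6 words (x axis) in Cpr genes (red) and all protein-coding genes (grey); right, share of genes (%) with an optimal-set summit within 500 bp of a start, by presence of the TATA word. The tallest red bar on the left is the TATA word at 55.7%; on the right both red values are 0, and the grey bars are 2.29% and 8.13%.

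By position, 45 Cpr genes fell into 10 arrays of at least 3 genes, with consecutive starts at most 50 kb apart, and 25 lay outside them. Start candidates were present at 36 of the 45 genes in arrays and at 18 of the 25 outside, against 71.8% of all genes. Arrays are named here by the cytological band in their symbols. The 49A array (8 genes, chr2R:12376626-12415170) had start candidates at 7 genes and the 47E array (7 genes, chr2R:11251751-11278445) at all 7. Every gene had one in 64A and 76B, with 4 genes each, and in 62B and 65E, with 3 genes each. In 65A it was 5 of 7, in 72E 2 of 3, in 78C 1 of 3 and in 67F 0 of 3. With 3 to 8 genes per array, these counts are too small to set an array apart from the background.

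Candidate density followed no single pattern across arrays. It was highest in 64A, with 19 candidates in 8577 bp or 2.22 per kb, beside 1.07 per kb over all gene bodies. The candidates in 64A had a median signal value of 11.1, the lowest of the arrays that held any. The density was 1.35 per kb in 47E, 1.14 in 49A and 1.02 in 65A. In 78C it was 0.215 per kb and in 67F it was 0. Only 65E had an optimal-set summit inside its span.

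Optimal-set peaks within 20 kb of an array were mostly at other genes. The 78C array had a peak on each side. On one side the nearest start was that of CG11309, 60 bp from a summit with a signal value of 172. On the other it was that of CG12974, 38 bp from a summit with a signal value of 122. Cpr78Cc, the closest Cpr gene, lay 4018 bp from the first.

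The 64A array had 2 peaks nearest to CG46460, with signal values of 216 and 152, inside an intron of ImpL2, which encodes a secreted insulin-binding protein. The 47E array had a peak in an exon of Fbl6, an F-box protein gene, with a signal value of 138. The 62B array had one nearest to GV1 (110), and the 72E array one in an exon of Agpat3, an acyltransferase gene (65.4). The 76B array had a further one nearest to CG9452 (75.5). The 49A, 65A and 67F arrays had none within 20 kb.

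**Figure D5:**
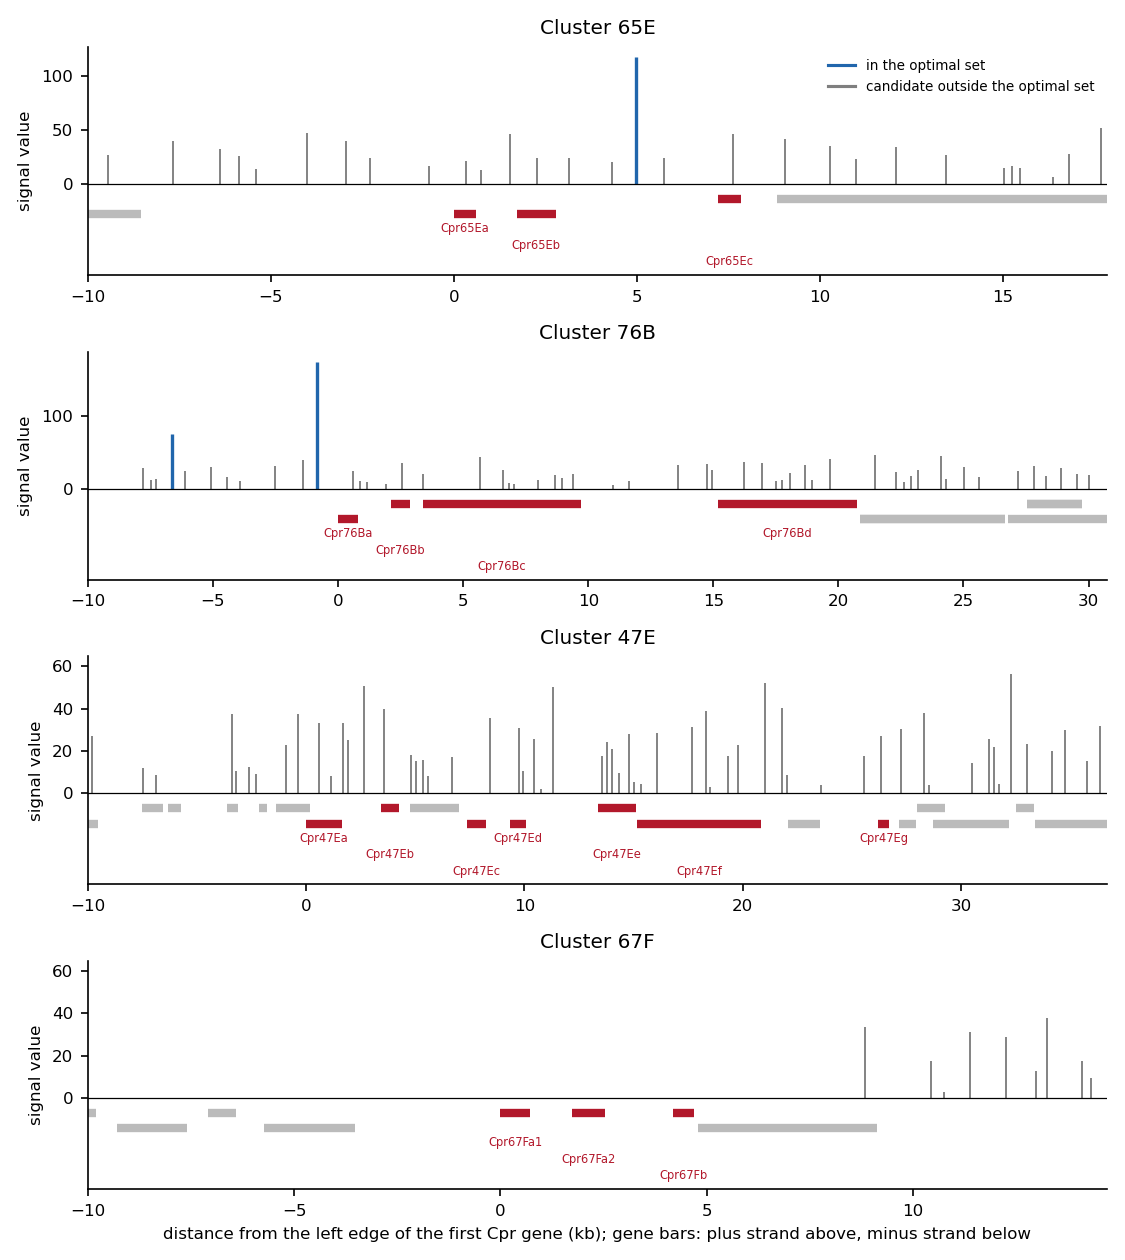
Signal value (y axes, scaled per panel) of optimal-set peaks (blue lines) and other candidates (grey lines) by distance in kb from the left edge of the first Cpr gene (x axes) in the arrays 65E, 76B, 47E and 67F; bars show Cpr genes (red) and other protein-coding genes (grey), plus strand above minus strand. The blue lines in 65E and 76B are 118, 174 and 75.5, 47E has grey lines alone, and the 67F genes lie in a stretch with no line.

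Start candidates were missing at 16 Cpr genes. Of these, Cpr31A, Cpr35B, Cpr49Ac, Cpr50Cb, Cpr56F, Cpr100A and Cpr11B still had a candidate nearest to them, and 9 had none. Start candidates were present at 77.1% of Cpr genes, against 71.8% of all genes. By nearest start it was 87.1%, against 87.9%. Missing candidates were therefore not a trait particular to Cpr genes. The 9 lay in stretches with no candidate summit. The 3 genes of the 67F array lay in a stretch of 20.3 kb, against a median of 636 bp between consecutive candidates on the arms. That stretch also took in the genes Blos4, CG6409, galla-2 and OXA1L, so it was not limited to the array. Only 0.211% of the stretches between candidates were as long. Genes picked for having no candidate tend to lie in long stretches by that choice, and a long stretch takes in more genes. The share is therefore a description of the stretch and not of how rare such genes are. The replicates' own ranked lists also had long stretches at the Cpr67Fa1 start, of 18.1 kb in replicate 1 and 17.2 kb in replicate 2. In replicate 2 that stretch took in all 3 genes. In replicate 1 it ended in a candidate with a signal value of 26.6 inside Cpr67Fa2, and the stretch at the Cpr67Fb start was 3.1 kb, a length that 9.78% of stretches in that list reached.

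The stretch at Cpr72Ea was 17.8 kb long over both replicates, with 3.9 kb in replicate 1 and 18.8 kb in replicate 2. Cpr11A lay in a stretch of 15 kb, with 4.4 kb in replicate 1 and 13.2 kb in replicate 2. Replicate 1 had a start candidate there, with a signal value of 14.6. Cpr65Ax1 and Cpr65Ax2 shared a stretch of 5.0 kb, with 7.0 kb in replicate 1 and 5.4 kb in replicate 2. These genes were named after the stretches were seen.

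Cpr78Ca and Cpr78Cb had start candidates in both replicates' own lists. They lay in a stretch of 12.5 kb in the ranked list behind the optimal set. At Cpr78Ca the signal values were 15.1 in replicate 1 and 25.7 in replicate 2. At Cpr78Cb they were 11.9 in replicate 1 and 19.2 in replicate 2. The other ranked list over both replicates also had candidates there, with a stretch of 1.9 kb at the Cpr78Ca start. For these 2 genes, as for Cpr11A, the missing candidate thus depended on the list.

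Some of the genes without candidates have near-identical copies, whose reads can be hard to assign. Cpr65Ax1 and Cpr65Ax2 had identical coding sequences over 306 bases and promoters that were 97.0% identical. Cpr67Fa1 and Cpr67Fa2 were 96.5% identical in coding sequence and 65.5% in promoters. Their promoters are printed to show this, over the same 150 bases with TATAAA in capitals.
Cpr65Ax1 promoter (chr3L:6147938-6148087, minus strand): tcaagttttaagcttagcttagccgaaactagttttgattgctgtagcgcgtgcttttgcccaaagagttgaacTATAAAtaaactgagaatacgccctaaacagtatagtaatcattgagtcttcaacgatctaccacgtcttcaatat
Cpr65Ax2 promoter (chr3L:6150808-6150957, minus strand): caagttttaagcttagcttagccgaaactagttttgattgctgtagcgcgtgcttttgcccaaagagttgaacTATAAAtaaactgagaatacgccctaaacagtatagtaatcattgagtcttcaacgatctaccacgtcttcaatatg
Cpr67Fa1 promoter (chr3L:10889890-10890039, plus strand): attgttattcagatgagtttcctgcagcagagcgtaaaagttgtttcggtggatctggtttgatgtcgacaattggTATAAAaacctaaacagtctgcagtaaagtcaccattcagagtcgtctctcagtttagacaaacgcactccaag
Cpr67Fa2 promoter (chr3L:10891614-10891763, plus strand): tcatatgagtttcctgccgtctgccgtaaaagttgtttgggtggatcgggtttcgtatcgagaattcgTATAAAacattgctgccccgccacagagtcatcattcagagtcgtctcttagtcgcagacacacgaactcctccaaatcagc
The share of 31-base words within 500 bp of the start that recur elsewhere in the genome was 76.4% at Cpr65Ax1 and 72.1% at Cpr65Ax2. It was 8.03% at Cpr67Fa1 and 5.77% at Cpr67Fa2. The other genes without candidates had few such words or none, with 0 at Cpr67Fb, Cpr72Ea, Cpr78Ca and Cpr78Cb and 1.44% at Cpr11A. Cpr67Fb, in the same stretch as Cpr67Fa1, was 61.3% identical to Cpr67Fa1 in coding sequence and 50.9% in the promoter. Of the 335 genes at which at least 50% of the words recur, 15.2% had a start candidate, against 73.2% of the other 13633 genes. Without Cpr65Ax1 and Cpr65Ax2, 54 of 68 Cpr genes (79.4%) had one. The sources used here do not say how the authors treated such reads, and the part of repeats in the missing candidates was not tested.

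Other genes of cuticle formation were taken from lists chosen by symbol. Of 64 other structural cuticle protein genes (Lcp, Ccp84, Twdl and obst families among them), 0 had an optimal-set peak nearest, which allows up to 4.69%, against 10.4% of all genes. A start candidate was present at 52 of the 64 (81.2%), against 71.8% of all genes. Of 16 tanning and pigmentation genes, 0 had an optimal-set peak nearest, which allows up to 18.8% and so does not exclude the background. Of 26 chitin synthesis and modification genes, 1 had such a peak nearest, the chitinase gene Cht7, 156 bp from its start with a signal value of 116. The share of 3.85% had an interval of 0.682 to 18.9%, which includes the background. At starts 2 of the 26 chitin genes (7.69%) had an optimal-set summit, near the background of 7.62%.

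Genes listed by symbol as epidermal and cuticle regulators had a larger share in gene bodies and by nearest start, and not at starts. Whether each listed gene is a regulator was not checked. An optimal-set peak was nearest to 12 of 18 (66.7%, 43.7 to 83.7%), against 10.4% of all genes. The listed genes with no such peak nearest were Blimp-1, usp, br, dy, pio and mey. In the gene body 10 of 18 (55.6%) had one, against 6.01%. At starts it was 1 of 18 (5.56%), against 7.62%, namely trh, a regulator of tracheal fate (101). By nearest start the strongest were those of the nuclear receptor genes Hr3 (350, 7897 bp from the start) and Hr4 (231, 21988 bp away), and Hr4 had 6 peaks. The tracheal regulator rib had 161, the POU factor gene vvl 155, and grh, which encodes the epidermal factor Grainy head, 145. The vvl summit lay between genes, 33854 bp from the start, and those of rib and grh 2233 and 2021 bp from theirs.

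Further values by nearest start were 132 for ftz-f1, 128 for the ecdysone receptor gene EcR and 103 for the ecdysone-induced gene Eip75B. The zinc finger genes sob and ovo had 87.2 and 84.4, and Eip74EF had 74.0. From ftz-f1 to Eip74EF the summits lay 3772 to 9407 bp from the start. Many of these summits lay in introns, that of Hr3 also in introns of CG12912 and CG46321. The ovo summit lay in an intron of a noncoding RNA gene. The list was chosen with earlier results known and was not matched to Cpr genes by length, so its share is a description. Chemoreceptor genes, another family in tandem arrays, had 0 of 179 genes with an optimal-set summit at a start, which allows up to 1.68%, against 7.62% of all genes. By nearest start it was 5 of 179 (2.79%), against 10.4% of all genes, namely Gr89a, Gr93a, Ir64a, Ir67c and Or22c, close to the 2.86% of Cpr genes.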

How the data were processed

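The samples were 2 biological replicates of 1 group. The authors deposited peak lists on dm6, per the labels, as ranked and thresholded lists for each replicate and for both together. The deposited columns used were the signal value, the q value as −log10 q (values in log10 units fall slightly below 0 in the lists over both replicates), the −log10 of the global IDR in the ranked lists, and the summit offset. The read aligner and the program that called peaks were not named in the sources used here. A further 16 columns of per-replicate values in the 2 joint ranked lists could be tied to no sample by a label and stayed out. Peaks on unplaced sequences were left out.

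Genes came from Ensembl release 115 (BDGP6 54) and sequence from the Release 6 assembly in RefSeq. Transposable elements and pseudogenes were left out. Nearest starts were those of protein-coding genes. Promoter word searches, repeated 31-base words (500 bp each side of the start) and global alignments of pairs were computed from that assembly. The Cpr genes and the other lists were chosen with earlier results of these data known. The rule for named genes took genes with a thresholded peak by any assignment, the 10 highest and 5 lowest start candidates, the nearest gene of each optimal-set peak within 20 kb of an array, and members of the other lists with a peak nearest. Genes named outside it were chosen after their values were seen. With 1 group there was no comparison between groups, and no test was made. Shares have 95% Wilson intervals, and a count of 0 is given the share that 3 counts would make. The assignment of peaks to genes was tested on simulated data, where 200 of 200 planted peaks were placed correctly by each of the 3 ways.

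Alternatives tried were the conservative set, each replicate's own lists, stronger peaks alone, peak intervals in place of summits, other windows and start sets, the other ranked list, the strongest 20000 candidates and other distances for arrays. Python 3.11.15, numpy 2.4.6, pandas 2.3.3, scipy 1.17.1, biopython 1.88 and matplotlib 3.10.9 were used.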

Additional observations from a re-analysis of the deposited data

How the results depend on the processing

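Of 41 alternatives, 10 moved a result, where a count had to change by more than 1.5 times and the median signal value by more than the spread between the replicates' medians. With the strongest 20000 candidates alone, 13 Cpr genes (18.6%) had one at a start, against 24.3% of all genes, 18 (25.7%) in the gene body, against 40.1%, and 36 (51.4%) by nearest start, against 54.7%. Within the 1.5 times, the count of 54 at starts was 40 with a 250 bp window (49.3% of all genes), 61 with a 1000 bp window (85.8%) and 42 to 50 without a replicate, and that of 58 in gene bodies was 44 to 57 without a replicate. Leaving out a replicate gave 1 Cpr gene with a thresholded peak nearest in either case, against 2. The median signal value of candidates nearest to Cpr genes was 12.8 without replicate 2 and 13.3 without replicate 1, each list having its own scale. It was 22.7 for candidates at starts, 19.9 for those in gene bodies and 39.3 for the strongest per gene. The count of thresholded summits at Cpr starts and in Cpr gene bodies was 0 under every alternative run, with windows of 250 to 1000 bp and with 2 kb upstream added to the body. The 250 bp window and the stronger peaks alone only take away from the optimal set, so their 0 followed from the main count. The number of Cpr genes in arrays was 45 with starts at most 20 or 100 kb apart. No paired analysis was possible because there was 1 group. No control sample was analysed here and depth is unknown, so missing peaks cannot be told apart from binding below detection.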
